A study of Macaca mulatta with 2 samples.

Results

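ZBTB16 and MAP3K8 are 2 of the 35432 genes listed in a single-cell RNA-seq library made from the blood CD4+CD8+ (double-positive, DP) T cells of 1 rhesus monkey, and they were chosen by name. ZBTB16 was found in 226 of 7601 cells (2.97%, 95% exact interval 2.60 to 3.38) and MAP3K8 in 704 (9.26%, 8.62 to 9.94). Cells that held a transcript of the T cell receptor alpha segment TRAV10 carried ZBTB16 at 85.5 CPM (counts per 1000000 counts) against 6.02 in cells without it. For MAP3K8 the same values were 68.4 and 28.1. The pair parted at GZMB and CCR7: MAP3K8 was higher in cells with GZMB and lower in cells with CCR7. ZBTB16 was slightly lower in cells with GZMB. The size of that difference depended on the setting, and under 1 stricter filter on cells its interval spanned 0. By CCR7 the ZBTB16 interval spanned 0.

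ZBTB16 encodes PLZF, a transcription factor with a BTB domain and zinc fingers. It drives the development of innate-like T cells such as invariant NKT and MAIT cells, which leave the thymus already able to make cytokines, and many of these cells carry a nearly fixed T cell receptor alpha chain. MAP3K8 encodes the kinase TPL2 (also called COT), which phosphorylates the MAP2K1 and MAP2K2 kinases upstream of ERK after Toll-like receptor, TNF receptor or antigen receptor signals. In resting cells TPL2 is held by the NF-kB precursor p105 and by TNIP2, and is freed when IKK phosphorylates p105.

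The blood of an untreated 6-year-old rhesus monkey was enriched for CD4-bearing cells with releasable magnetic microbeads and then for CD8-bearing cells with CD8 microbeads. The cells were stained with barcoded antibodies to CD4 and CD8, and sequenced as a 5′ gene expression library and a surface protein library of the same cells. With 1 animal and no second condition, no value has a replicate, nothing was tested between animals, and every interval covers counting error only. Of 7923 barcodes, 7601 passed the filters, with a median of 3636 UMIs (unique molecular identifiers, each counting 1 captured RNA molecule) and a range of 502 to 23511. A level in CPM is the gene's UMIs summed over a group of cells, per 1000000 UMIs of all genes in the same cells. CD3E, a chain of the T cell receptor complex, was found in 91.8% of cells without ZBTB16 and 91.3% of cells with it once each cell had been thinned to 2000 UMIs. Against the label, 86 of the kept cells carried at least 3 UMIs of a list of B cell genes that includes CD79A, CD79B and MS4A1, and none of CD3D, CD3E and CD3G, and these are called B gene cells.

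On the Mmul_10 assembly, ZBTB16 spans chromosome 14, 107205938 to 107403230 on the plus strand (197 kb, 5 annotated transcripts with 5 starts, 5 to 7 exons), and 2 unnamed RefSeq loci on the opposite strand, LOC114672405 and LOC114672406, overlap it. MAP3K8 spans chromosome 9, 31347451 to 31374131 on the plus strand (26.7 kb, 4 transcripts with 4 starts, 8 exons), with no overlapping gene. The promoter of MAP3K8 is shown because the window carries an NF-kB motif, so the match given below is the reason for the choice and not a finding. Control of the gene by NF-kB was not tested. The window is the 250 bases before the first annotated start, chr9:31347201-31347450, read 5′ to 3′ on the plus strand from the reference genome.
MAP3K8: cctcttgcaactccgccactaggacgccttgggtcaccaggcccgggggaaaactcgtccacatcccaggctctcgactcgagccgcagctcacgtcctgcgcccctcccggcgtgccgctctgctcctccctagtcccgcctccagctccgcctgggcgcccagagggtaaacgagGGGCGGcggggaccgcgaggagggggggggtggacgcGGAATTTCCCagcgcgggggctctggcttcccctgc
Capitals mark GGGCGG, the box read by SP and KLF factors, and the NF-kB motif. The window was rich in G and C, at 71.6% against a median of 57.2% over 20782 promoters of the same length. GGGCGG, searched on both strands, matched 73 bases before the start, and 43.7% of all promoters held it. The NF-kB motif matched 36 bases before the start, and 9.55% of promoters held it. The window did not hold the letters GCGTGGGCG (EGR, 0.722% of promoters), CANNTG (E box, 60.3%), CCGGAAG (ETS, 7.05%), TGTGGT (RUNX, 11.2%), TGANTCA (AP-1, 5.15%) or TGACGTCA (CRE, 1.47%). A match is a run of letters in the reference and was not measured as bound, and with 4 annotated starts another window may apply to a given transcript.

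ZBTB16 gave 275 UMIs in all, 8.87 CPM (7.85 to 9.98), and most cells that held it held a single molecule: 186 cells had 1 UMI, 34 had 2, 4 had 3, and 1 cell each had 4 and 5. Cells with a ZBTB16 UMI were deeper than the rest, with a median of 4476 UMIs against 3616. At an equal 2000 UMIs per cell, which left out 495 shallower cells, 1.46% of 7106 cells held it. None of the 86 B gene cells did, which allows a share of up to 3.49%, at a median depth of 4122 UMIs. MAP3K8 gave 915 UMIs, 29.5 CPM (27.6 to 31.5), with 561 cells at 1 UMI, 99 at 2, 28 at 3, 11 at 4, 3 at 5 and 1 each at 6 and 7. After thinning, 5.40% of cells held it. MAP3K8 was also found in 38 of the 86 B gene cells (44.2%, 33.5 to 55.3), at 184 CPM (144 to 231), and without these cells its level was 27.5 CPM.

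The cells were sorted by raw UMIs of 6 genes: TRAV10, the alpha segment; TYROBP, the adaptor DAP12 of activating NK receptors; KLRB1, the lectin receptor CD161; EOMES, a T-box transcription factor of memory and cytotoxic T cells; GZMB, the granule protease granzyme B; and CCR7, the lymph node homing receptor of naive and central memory T cells. The ZBTB16 level was higher at each step of TRAV10 UMIs, from 6.02 CPM at 0 UMIs (7353 cells) to 49.4 at 1 (43 cells), 61.7 at 2 (54 cells) and 108.7 at 3 or more (151 cells), though the intervals of the last 3 groups overlap. The log2 ratio of cells with TRAV10 over cells without was 3.83 (3.45 to 4.19), and 29.4% of the 248 cells with TRAV10 against 2.08% of the others held ZBTB16. These 248 cells were 3.26% of all cells and carried 34.5% of the ZBTB16 UMIs, so that most ZBTB16 molecules were still counted in cells without a TRAV10 UMI.

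TYROBP ordered ZBTB16 in the same way, at 5.32, 10.8, 18.1 and 41.9 CPM for 0, 1, 2 and 3 or more UMIs (log2 ratio 2.16, 1.81 to 2.51). For KLRB1 the cells with 1 UMI stood at the level of those with 0, 6.35 against 6.05 CPM, and those with 2 and with 3 or more at 22.7 and 25.2 (log2 ratio 1.50, 1.15 to 1.85). EOMES made no difference that could be detected at this depth: 14 ZBTB16 UMIs in 363 cells gave 8.92 CPM against 8.87 (log2 ratio 0.01, −0.88 to 0.78). GZMB went the other way, 7.35 against 9.94 CPM (−0.43, −0.81 to −0.07), but with cells limited to 10% mitochondrial UMIs the interval spanned 0 (−0.27, −0.67 to 0.11). In cells thinned to 2000 UMIs the ratio was −0.99 (−1.62 to −0.39). The steps were not steady, at 9.94, 12.8, 14.9 and 6.26 CPM for 0, 1, 2 and 3 or more GZMB UMIs, so only the last lay lower. For CCR7 the interval spanned 0, with 8.02 against 9.33 CPM (−0.22, −0.60 to 0.15).

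MAP3K8 was higher in cells with each of 5 class genes and lower in cells with CCR7. By TRAV10 it stood at 28.1, 41.2, 45.3 and 87.9 CPM for 0, 1, 2 and 3 or more UMIs (log2 ratio 1.28, 0.93 to 1.63). By TYROBP the steps were 23.1, 42.0, 47.6 and 77.9 CPM (1.29, 1.09 to 1.49), and by KLRB1 23.6, 36.5, 51.6 and 55.3 (0.996, 0.80 to 1.19). The KLRB1 ratio was 1.58 (1.26 to 1.89) within cells without GZMB and 0.26 (0.01 to 0.51) within cells with GZMB. MAP3K8 was also higher in cells with EOMES, 47.2 against 28.6 CPM (0.72, 0.36 to 1.07), and in cells with GZMB, 42.8 against 20.2 (1.08, 0.89 to 1.28). The EOMES interval spanned 0 in cells thinned to 2000 UMIs (0.48, −0.105 to 1.02) and within cells with GZMB (0.27, −0.24 to 0.75) but not within cells without it (1.19, 0.66 to 1.69), and the difference from ZBTB16 was not tested. Cells with CCR7 held it at 13.2 CPM against 38.3 in cells without (−1.54, −1.81 to −1.28). Without the 86 B gene cells the 6 directions stood, with GZMB at 1.32 and CCR7 at −1.51.

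**Figure D1:**
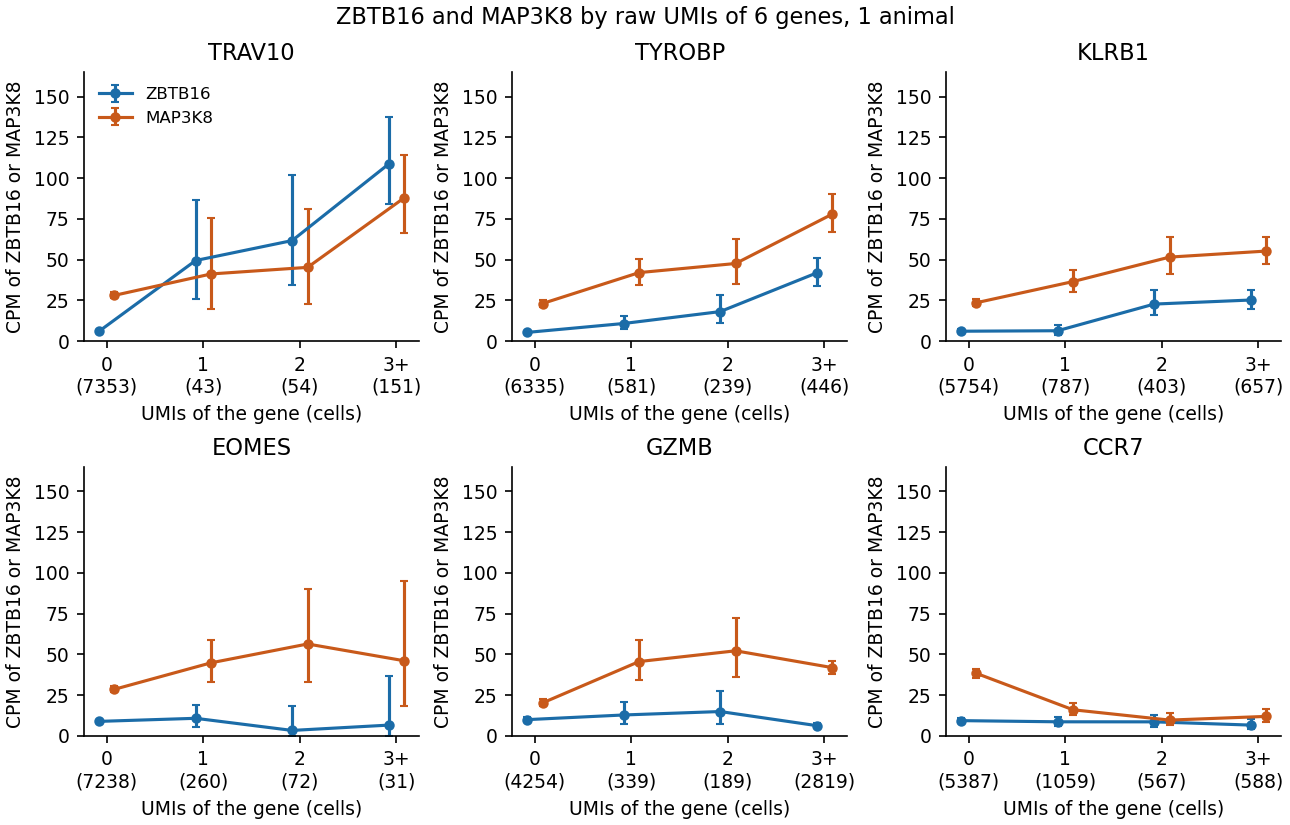
Level of ZBTB16 and of MAP3K8 in CPM (linear axis) for cells at 0, 1, 2 and 3 or more UMIs of each of the 6 class genes, with bars for the exact 95% Poisson interval over cells of 1 animal. ZBTB16 goes from 6.02 to 108.7 with TRAV10 and from 5.32 to 41.9 with TYROBP, and MAP3K8 lies below its level at 0 UMIs only along CCR7.

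TRAV10 and TYROBP were each tied to ZBTB16 also within the other, and cells with both stood highest. The 157 cells with both held ZBTB16 at 114 CPM (91.0 to 141), and 41.4% of them had a UMI. The 91 cells with TRAV10 alone stood at 29.4 CPM, the 1109 with TYROBP alone at 11.1, and the 6244 with neither at 4.95. The order for MAP3K8 was another: 97.7 CPM with both, 50.7 with TYROBP alone, 23.3 with neither and 10.7 with TRAV10 alone, the last on 4 UMIs (interval 2.91 to 27.3). So among cells without TYROBP, TRAV10 went with more ZBTB16 (log2 ratio 2.57, 1.53 to 3.46) while the MAP3K8 interval spanned 0 (−1.12, −3.00 to 0.24). Whether the ratios differ between strata was not tested.

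CCR7 separated ZBTB16 among the TRAV10 cells, where 48 cells with CCR7 held 36.4 CPM and 200 without it 101.6 (log2 ratio −1.48, −2.59 to −0.53). Among cells without TRAV10 the ratio was 0.45, with a lower bound at 0.00 (7.28 against 5.33 CPM). MAP3K8 was lower with CCR7 in both, at 21.9 against 83.6 CPM among TRAV10 cells and 13.0 against 36.4 among the others. GZMB did not separate MAP3K8 among TRAV10 cells beyond counting error, 74.4 against 62.5 CPM (0.25, −0.44 to 0.94), whereas among the other cells it did, 41.4 against 18.9 (1.13, 0.93 to 1.34). For ZBTB16 the GZMB difference was beyond counting error among cells without TRAV10, 4.17 against 7.31 CPM (−0.81, −1.31 to −0.33). Among TRAV10 cells it had the same sign but was within counting error, 77.99 against 92.85 CPM (−0.25, −0.87 to 0.36). Of the TRAV10 cells thinned to equal depth, 13.3% of those with GZMB held ZBTB16 against 22.4% of those without, with overlapping intervals. The difference between these ratios was not tested.

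No other alpha segment that could be read stood near TRAV10 for ZBTB16. Cells without a UMI of any named alpha segment numbered 3506 and carried 70 ZBTB16 UMIs (5.18 CPM), so their segments are not known. TRAV1-2, listed here as a segment of unconventional T cells, was not among those read. Of 23 named alpha segments found in at least 20 cells, the next highest share of cells with ZBTB16 was 6.15% (4 of 65 cells, 1.70 to 15.0) for TRAV3, and none of 99 TRAV34 and 48 TRAV39 cells held it, which allows up to 3.03% and 6.25%. For MAP3K8, TRAV10 cells came first at 23.0% (17.9 to 28.7), but the interval of the next segment, TRAV39 at 16.7% (8 of 48 cells, 7.48 to 30.2), overlapped it. The lowest share was 3.08% for TRAV3.

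Splitting the TRAV10 cells by a second receptor transcript separated both genes. The feature ENSMMUG00000059234 has no symbol in the table of gene names and is listed among the T cell receptor beta variable segments, between TRBV24-1 and TRBV27. The 146 cells with TRAV10 and this feature held ZBTB16 at 131 CPM (104 to 162) and MAP3K8 at 102.5 (79.1 to 131). The 102 cells with TRAV10 alone held 25.1 (13.0 to 43.9) and 23.0 (11.5 to 41.2), so the intervals of the groups do not meet for either gene. The 37 cells with the feature alone gave 2 ZBTB16 UMIs. TRGV9, a gamma segment that alpha-beta T cells may also transcribe, split the TRAV10 cells the same way: 89 cells with both held 123 CPM of ZBTB16 and 115.5 of MAP3K8, and 159 cells without TRGV9 held 65.1 and 43.0. In the 59 cells with TRGV9 and no TRAV10 the levels were 44.1 (22.0 to 78.8) and 88.1 (55.2 to 133). The feature and the TRGV9 split were chosen after their values with ZBTB16 had been seen, and are given as a description.

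**Figure D2:**
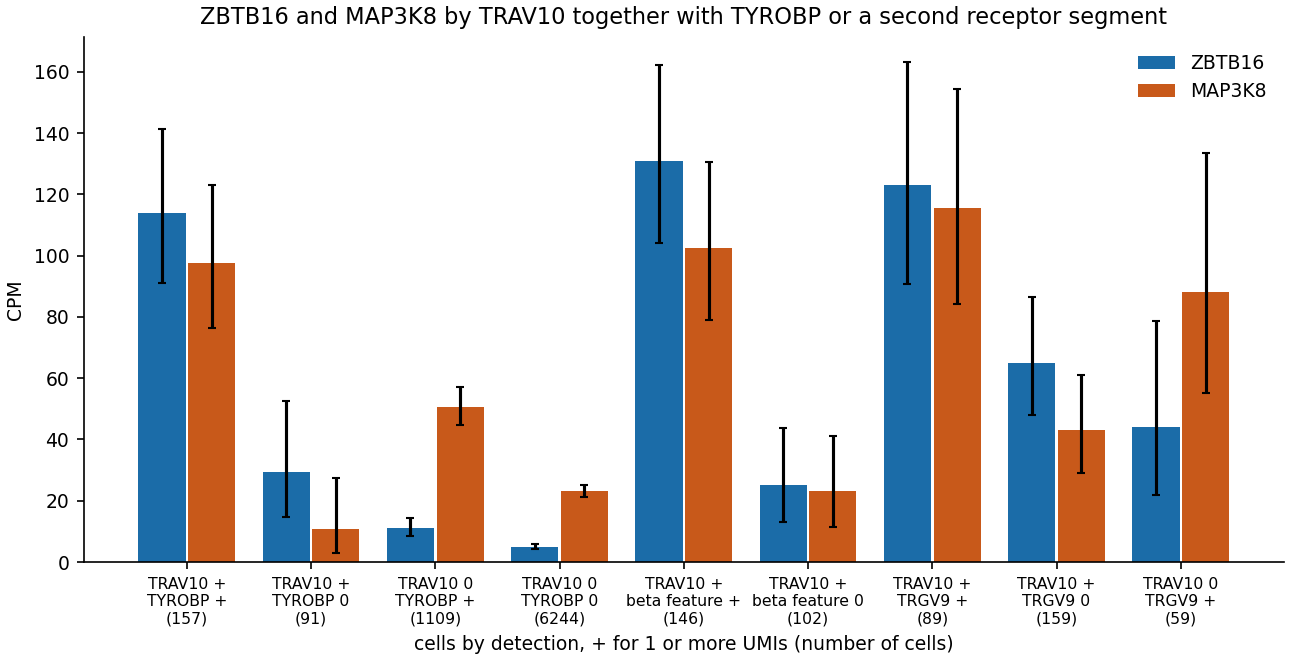
Level of ZBTB16 and of MAP3K8 in CPM (bars, from 0) in cells split by TRAV10 together with TYROBP, the unnamed feature ENSMMUG00000059234 (beta feature) or TRGV9, where + stands for 1 or more UMIs, numbers in brackets are cells, and error bars are exact 95% Poisson intervals over cells of 1 animal. Cells with both TRAV10 and TYROBP hold 114 (ZBTB16) and 97.7 (MAP3K8) and cells with TRAV10 and no TYROBP 29.4 and 10.7.

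The 6 class genes made 56 joint patterns, of which 15 held at least 50 cells (7079 cells together). Among the 15, ZBTB16 was highest in the 65 cells with TRAV10, TYROBP, KLRB1 and GZMB and neither other gene, at 101.5 CPM (68.5 to 145). No other pattern of the 15 included TRAV10, so the remaining TRAV10 cells lay in smaller patterns. The 522 cells of the smaller patterns together held ZBTB16 at 30.1 CPM (82 UMIs). Within the 15, ZBTB16 was next in TYROBP with KLRB1 (14.8), the same with GZMB (14.1) and TYROBP with CCR7 (13.3), whose intervals overlap. In the 1603 cells with GZMB alone, the largest pattern, it was at 0.959 CPM (0.312 to 2.24), 5 UMIs in all and 0.312% of cells, at a median depth of 3098 UMIs. Cells with CCR7 alone stood at 6.87 and cells with none of the genes at 5.10, so the GZMB-only cells lay under both. None of 72 cells with EOMES and CCR7 and none of 53 with KLRB1, EOMES and GZMB held ZBTB16, which allows shares of up to 4.17% and 5.66%.

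MAP3K8 led in the same pattern of 65 cells, the only pattern of this size with TRAV10, at 91.3 CPM (60.2 to 133). It then ran from 68.2 in TYROBP with KLRB1, 57.0 in TYROBP with GZMB and 56.4 in all of those genes together down to 6.14 (4.43 to 8.30) in the 1534 cells with CCR7 alone, whose median depth was 4264 UMIs. GZMB-only cells held 36.3 CPM (31.3 to 41.8), so the pattern in which ZBTB16 was nearly missing held MAP3K8 at no less than its level over all cells. In the CCR7-only cells it was MAP3K8 that was low, and the interval of ZBTB16 overlapped that of its level over all cells.

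**Figure D3:**
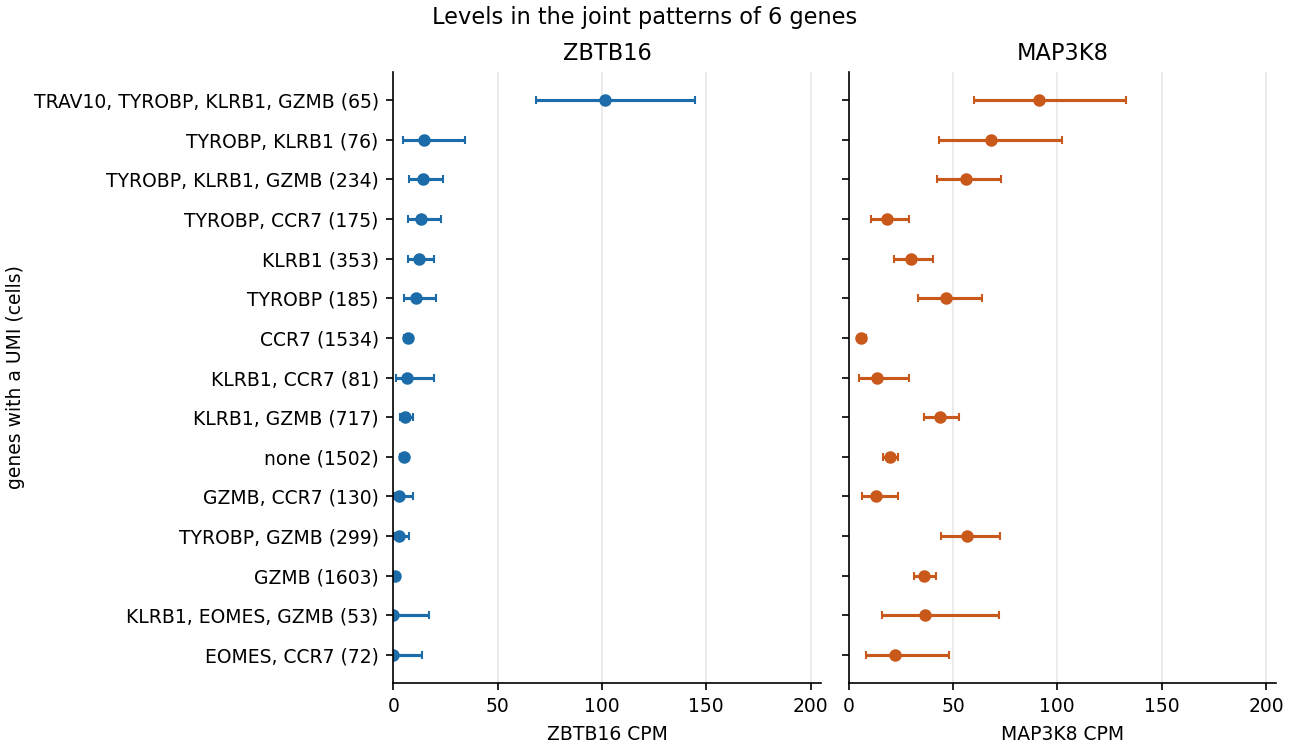
Level of ZBTB16 and of MAP3K8 in CPM in the 15 joint patterns of the 6 class genes with at least 50 cells, with exact 95% Poisson intervals. The pattern TRAV10, TYROBP, KLRB1 and GZMB, the only pattern shown with TRAV10, is highest for both (101.5 and 91.3). GZMB alone is at 0.959 for ZBTB16 and 36.3 for MAP3K8, and CCR7 alone at 6.87 and 6.14.

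The antibody tags count surface CD4 and CD8. A cell was called above a tag's threshold where it had more UMIs than 90% of the B gene cells, which gave 191 for CD4 and 330.5 for CD8, so 91.9% of kept cells were above the first and 50.5% above the second. Among cells with ZBTB16 the median CD8 tag was 467.5 against 331 in the others, and 65.0% against 50.1% lay above the threshold. Shares for CD4 were close, 92.9% and 91.9%. Cells with ZBTB16 also had more RNA UMIs, as given above. In CPM, ZBTB16 was 9.97 above and 7.42 at or below the CD8 threshold (log2 ratio 0.43, 0.06 to 0.80), and for the CD4 tag the interval spanned 0 (8.73 against 11.0, −0.33, −0.98 to 0.38). The CD4 tag value depended on the cells and the threshold. It was −0.84 (−1.49 to −0.12) without cells holding any B cell gene UMI, −0.88 (−1.56 to −0.13) within cells without TRAV10, and 0.36 (−0.01 to 0.73) with the median as threshold.

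The CD8 tag difference was seen in the cells with GZMB, though the ratios with and without GZMB were not tested against each other. There ZBTB16 stood at 11.4 CPM above the CD8 threshold (86 UMIs) and at 1.53 in the 1604 cells at or below it (8 UMIs), a log2 ratio of 2.90 (1.85 to 4.15). With TRAV10 cells left out it was 1.97 (0.87 to 3.27). In cells without GZMB the ratio was −0.33 (−0.77 to 0.11). The 21 cells with TRAV10 and GZMB at or below the CD8 threshold held no ZBTB16 UMI, against 43 UMIs in the cells above it. MAP3K8 in cells with GZMB did not follow the CD8 tag, 44.6 against 40.1 CPM (0.15, −0.10 to 0.41).

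MAP3K8 differed by the CD4 tag, at 26.0 CPM above the threshold and 82.8 in the 617 cells at or below it (−1.67, −1.92 to −1.41). Other cell types moved with this difference. Without the B gene cells it was 25.7 against 62.1 CPM (−1.27, −1.58 to −0.95), and the 539 low-CD4 cells that then remained carried the B cell list at 594 CPM against 69.3, the monocyte list (6 genes with UMIs) at 364 against 6.09, and the red cell list at 3860 against 41.1. The part of these cells in the MAP3K8 difference was not tested beyond leaving them out: with only cells that held a CD3 UMI and no UMI of the B cell and monocyte lists, the ratio was −0.99 (−1.36 to −0.59). By the CD8 tag the MAP3K8 interval spanned 0 (28.3 against 31.2 CPM, −0.14, −0.33 to 0.05). With both tags and without the B gene cells, MAP3K8 was highest in the 198 cells above the CD8 threshold only, at 81.2 CPM (61.0 to 106). The 341 cells above neither held 47.9 (34.6 to 64.5), which overlaps. Cells above the CD4 threshold held 25.8 with and 25.5 without a CD8 tag above its threshold. ZBTB16 in the 198 cells was at 18.1 CPM on 12 UMIs (9.33 to 31.5).

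The cells were also put into 5 groups of about equal size by each tag. From the lowest to the highest CD4 tag, MAP3K8 stood at 53.2, 31.1, 22.7, 23.3 and 25.1 CPM, so that the lowest group lay above the level over all cells and the next one overlapped it. ZBTB16 stood at 6.78, 6.26, 12.2, 8.58 and 9.53 CPM, with no steady order. By the CD8 tag ZBTB16 ran from 7.15 and 6.94 CPM in the lower groups to 8.92, 9.83 and 10.4 in the upper ones, with overlapping intervals, and MAP3K8 stood at 27.0, 38.7, 27.5, 27.9 and 27.6.

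**Figure D4:**
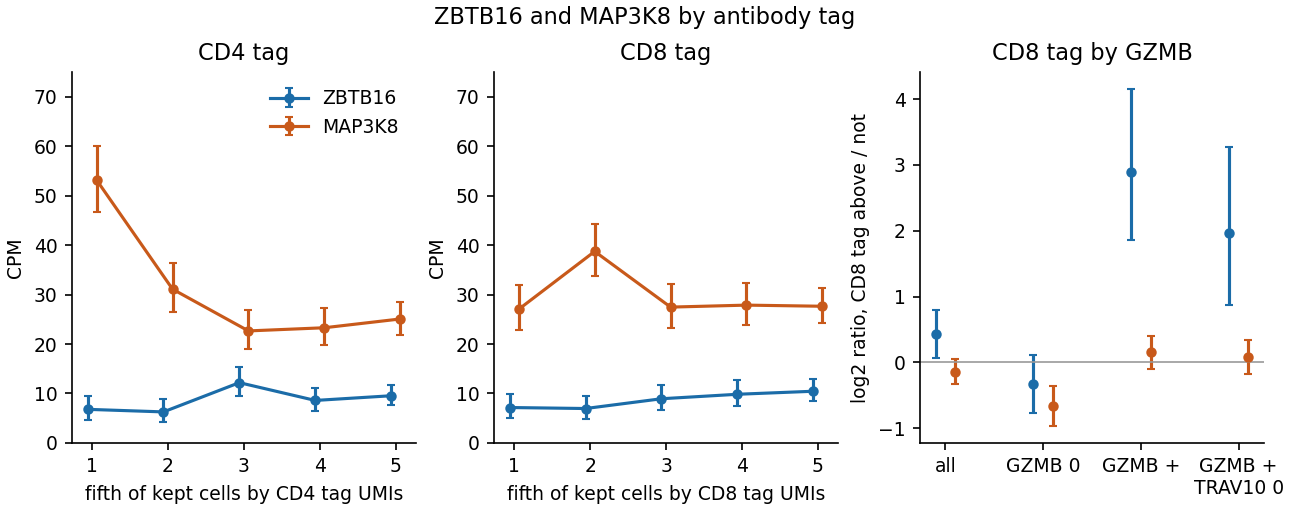
Left and middle, level of ZBTB16 and of MAP3K8 in CPM in 5 groups of cells of about equal size from the lowest (1) to the highest (5) CD4 or CD8 tag; right, log2 ratio of cells above the CD8 threshold over those at or below it, for all cells, cells without GZMB, cells with GZMB, and cells with GZMB and no TRAV10, all with exact 95% intervals for counting error. MAP3K8 is at 53.2 in the lowest CD4 group, and in cells with GZMB the CD8 ratio is 2.90 for ZBTB16 and 0.15 for MAP3K8.

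The 2 genes were found together in 49 of 7601 cells (0.645%, 0.477 to 0.851). Of the 248 TRAV10 cells, 33 held both, 40 ZBTB16 only, 24 MAP3K8 only and 151 neither, and 31 of the 33 also held TYROBP. Of the 7353 other cells, 16 held both. In cells with ZBTB16 the MAP3K8 level was 62.1 CPM against 28.3 in cells without (log2 ratio 1.14, 0.77 to 1.49). Among TRAV10 cells it was 138.5 against 36.6 (1.92, 1.22 to 2.65), while among cells without TRAV10 it was 29.5 against 28.0 (0.07, −0.58 to 0.66). The pair thus went together among cells with TRAV10, and outside those cells no difference was detectable at this depth. The difference between the ratios was not tested. At equal depth the correlation of detection over cells (phi, from −1 to 1, a description only) averaged 0.054 over 20 random thinnings, with a range of 0.020 to 0.081 in 7106 cells. It averaged 0.192 (0.0090 to 0.301) within TRAV10 cells and 0.0135 (0.000016 to 0.034) in the others, so it varied widely with the draw.

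The genes most often found with ZBTB16 were taken from 10223 genes detected in at least 20 cells thinned to 2000 UMIs, where 104 cells held ZBTB16. In order of phi they were TRAV10 (0.266, 38.5% of ZBTB16 cells against 2.23% of the others), ENSMMUG00000059234 (0.238), TRGV9 (0.161), TYROBP (0.141, 49.0% against 11.3%), KLRB1 (0.079, 43.3% against 17.8%), MAP3K8 (0.075, 19.2% against 5.20%), BLK (a SRC family kinase best known from B cells, 0.073), CEBPD (a bZIP transcription factor, 0.072), ZNF892 (0.072) and IL18RAP (the accessory chain of the IL-18 receptor, 0.068). At the other end stood CD6 (−0.049), ARPC3 (−0.048), MAMU-DRB1 (−0.046), GZMB (−0.046) and LAT (−0.043). Cells share the library and the animal, and detection depends on how abundant a gene is. Over the 20 thinnings TRAV10, the unnamed feature, TRGV9 and TYROBP were among the first 10 in all 20, KLRB1 in 18 and MAP3K8 in 7. MAP3K8 ranked from 6, the rank given above, to 571. BLK was among the first 10 in 11 thinnings, IL18RAP in 4 and CEBPD in 2. THY1 and CPE, which the list above lacks, were among them in 15 and 9. Which genes follow KLRB1, and in what order, is therefore not settled at this depth.

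Among cells without a TRAV10 UMI, where 61 thinned cells held ZBTB16, the list shared only ZNF892 with the one above. It was ENSMMUG00000056711, ZNF892, ZNF136, TRBV11-1, TCEA2, SATB1, SYNGR3, RBM12B, LKAAEAR1 and KLF4. This order comes from a single thinning and was not redrawn. All but TRBV11-1 and SATB1 rested on 3 or 4 cells. SATB1, a chromatin organiser of T cell development, was in 39.3% against 15.2% of cells (phi 0.063), and TRBV11-1, a beta segment, in 14.8% against 2.95%. TYROBP ranked 21 there (26.2% against 10.2%) and MAP3K8 ranked 1331 (8.20% against 5.08%). PDCD1, the inhibitory receptor PD-1, was among the lowest 5, in 3.28% (2 cells) against 20.9%.

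MAP3K8 was found with another set. The first of its genes over all 7106 cells were CYBB, ENSMMUG00000020092, NKG7, GNLY, MILR1, CST7, IGHM, MAMU-DRB1 and SYK, several of them genes of B and myeloid cells. Without the B gene cells they were the granule genes NKG7, GNLY, CST7, GZMB and CTSW, the calcium-binding protein gene S100A4, the chemokine CCL5, KLRB1, TYROBP and the unnamed beta-region feature. NKG7 was in 76.8% of all thinned cells with MAP3K8 against 52.0% of those without, and GNLY in 54.2% against 31.3%. The naive genes lay at the other end, LEF1 in 2.86% against 15.8% and CCR7 in 5.73% against 19.1%.

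**Figure D5:**
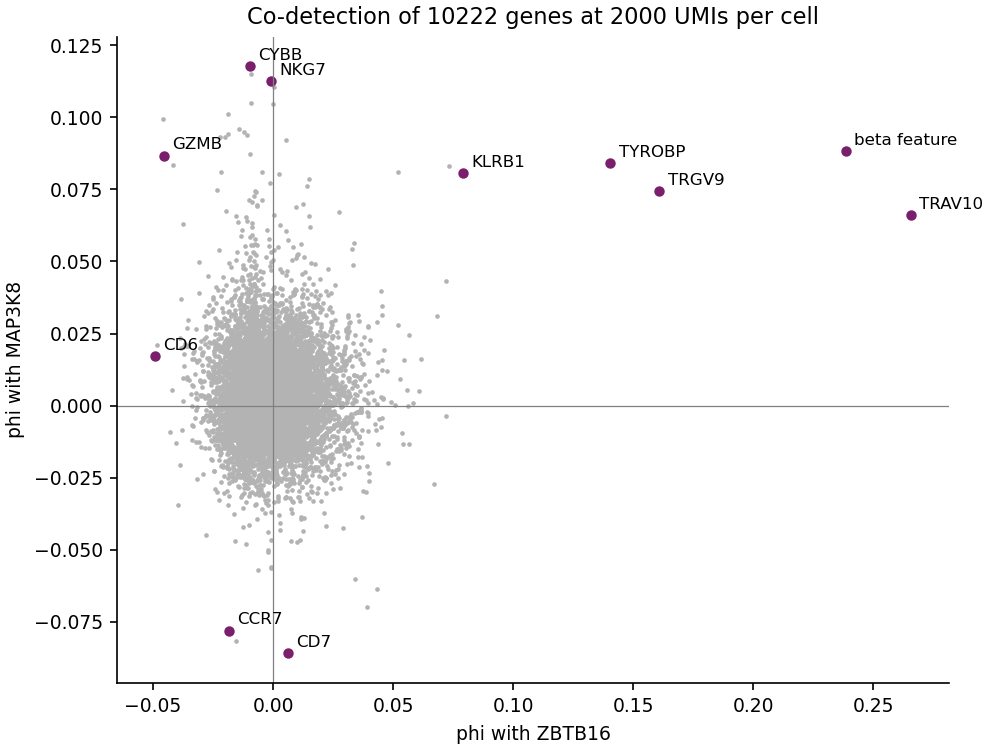
Correlation of detection (phi) of each of 10222 genes with ZBTB16 (x axis) and with MAP3K8 (y axis), each point a gene, over 7106 cells thinned to 2000 UMIs. TRAV10 (0.266 and 0.066), the unnamed feature ENSMMUG00000059234 (labelled beta feature), TRGV9 and TYROBP lie far out with both, and GZMB lies below 0 with ZBTB16 (−0.046) and above 0 with MAP3K8 (0.087).

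Gene lists were read by the share of thinned cells with a gene, called higher or lower where the share differed at least 2-fold between cells with and without the member. For ZBTB16, 7.67% of all 10223 genes were called higher and 7.71% lower on this rule, and for MAP3K8 4.08% and 4.62%. The list of unconventional T cell genes was chosen with earlier results of these data known. It also holds the class genes KLRB1 and TYROBP, so its counts are a description and not an independent test. Of 17 genes of unconventional T cells, 10 were called higher with ZBTB16 (KLRB1, TYROBP, KLRG1, IL18R1, IL18RAP, IL12RB2, LST1, CEBPD, FCER1G and IL15RA) and CXCR6 lower, with a median phi of 0.021 against −0.0031 over all genes. Some of these rest on very few of the 104 cells, FCER1G and CXCR6 on 1 each, IL12RB2 on 2 and IL15RA on 3. Among cells without TRAV10, 8 of the 17 were called higher and 0 lower, with a median phi of 0.018 against −0.0044 over all genes. Only 61 thinned cells held ZBTB16 there, so a rare gene can be called on very few cells. The share of all genes called was not counted there, so the 8 calls cannot be set against it. KLRG1 and KLRB1 lost their call: KLRG1 was in 8.20% of cells with ZBTB16 against 8.55% of the others, and KLRB1 in 27.9% against 17.0%. Over all thinned cells IL2RB, the shared IL-2 and IL-15 receptor chain, was in 27.9% against 17.3% and DPP4 (CD26) in 23.1% against 14.8%, both within the limit. With MAP3K8, 6 of the 17 were called higher (TYROBP, KLRD1, IL18RAP, SLC4A10, CEBPD and FCER1G) and IL18R1 lower, so the IL-18 receptor alpha chain stood on opposite sides for the pair, on 5 cells with ZBTB16 and 4 with MAP3K8.

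Of the genes known to act before ZBTB16 in innate-like T cells, the SLAM receptors with SH2D1A and FYN and the EGR factors, 0 of 7 tested were called with ZBTB16. That is near the share over all genes, 7.67% higher and 7.71% lower. EGR2 was in no thinned cell with ZBTB16, so for it no call could be made. EGR1 was in 1.92% (2 of 104) against 3.80% of cells, SLAMF6 in 9.62% against 14.1%, SLAMF1 in 9.62% against 9.63% and FYN in 19.2% against 13.9%. With MAP3K8, EGR1 (7.55% against 3.55%) and EGR2 (3.12% against 0.789%), both immediate early factors, were called higher. These are 2 of the 7 tested, against 4.08% of all genes. Without the 86 B gene cells EGR1 was in 5.26% against 2.97% and was no longer called, while EGR2 was still called. Of 15 helper and effector regulators tested, 1 was called higher with ZBTB16 and 2 lower, against 7.67% and 7.71% of all genes. The 2 lower were TOX (2.88% against 9.98%) and PRDM1 (2.88% against 7.97%), each on 3 of 104 cells. GATA3, the factor of type 2 helper cells, was in 20.2% against 12.6%. With MAP3K8, 0 of the 15 regulators were called higher and 3 lower, BACH2 and LEF1 among them, against 4.62% of all genes called lower. A list of other BTB zinc finger genes and the cullin CUL3 had 16 genes tested. With ZBTB16, 1 was called higher and 1 lower, near the share over all genes. The higher was PATZ1, and the lower was ZBTB7B, which encodes the CD4 lineage factor ThPOK, on 1 of 104 cells. Another 3 of the 16 were in none of these 104 cells, so for them no call could be made.

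The TPL2 pathway list holds the partners, substrates and feedback phosphatases of MAP3K8, and 19 of its genes could be tested. With MAP3K8 itself 1 was called higher (DUSP6, an ERK phosphatase) and 1 lower (TRAF2), which is near the share over all genes, and the most abundant members were within the limit: DUSP2 in 23.4% against 24.3% of cells, MAP2K2 in 21.9% against 20.2%, IKBKG in 19.5% against 17.2% and REL in 21.1% against 16.4%. With ZBTB16 0 of 19 were called, against 7.67% of all genes called higher and 7.71% lower, and DUSP2 was in 35.6% against 24.1%. Of the 19, 2 were in no thinned cell with ZBTB16 and could not be called. None of 10 other MAP3K genes was called with either, but 3 of them were in no thinned cell with ZBTB16 and 1 in none with MAP3K8, so for these no call could be made. Of 25 activation and NF-kB target genes, 4 were called higher with MAP3K8 (EGR1, NR4A3, TNF and CCL3) and 0 with ZBTB16. Over all genes these shares were 4.08% and 7.67%. FOS, ZFP36, DUSP1 and JUN were within the limit in both. JUN, the least common of these genes, was in 4012 of 7106 thinned cells. A share this large cannot be 2-fold higher with either member, so none of these genes could have been called higher. NR4A1, NR4A3 and CCL3 were in none of the 104 cells with ZBTB16, so for these 3 genes no call could be made. Without the 86 B gene cells EGR1 and TNF were no longer called with MAP3K8, and BIRC3, an inhibitor of apoptosis, was called lower (2.49% against 6.06%).

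Granule and naive genes were read for both members. Of 10 cytotoxic granule genes, 0 were called with MAP3K8, against 4.08% of all genes called higher and 4.62% lower. The rule leaves little room for common genes. NKG7 was in 52.0% of thinned cells without MAP3K8, so it could not be called higher, and GZMB (40.5%) would have needed most cells. Yet all 10 had a positive phi, with a median of 0.082 against 0.0020 over all genes. With ZBTB16 the median was 0.00024, CTSW was called higher (30.8% against 15.2%) and CCL5 lower (9.62% against 24.5%), and NKG7 was in 52.9% against 53.3%. These ZBTB16 calls are near the share over all genes, 7.67% higher and 7.71% lower. Of 10 naive genes, 5 were called lower with MAP3K8 (CCR7, LEF1, PECAM1, BACH2 and CA6), against 4.62% of all genes. With ZBTB16 0 were called, near the 7.71% of all genes called lower. However, 2 of the 10 were in no thinned cell with ZBTB16, so for these no call could be made. The B cell genes CD79A, CD79B and MS4A1 were called higher with MAP3K8. The summed B cell list was 567 CPM in cells with MAP3K8 against 109.8 in the others, and the monocyte list 135 against 12.4. With ZBTB16 the B cell list was 92.3 against 161 CPM, the monocyte list 1.73 against 26.4 with 4 of 6 genes at 0, and the red cell list 15.5 against 242.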

How the data were processed

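The authors deposited whole-number UMI counts per gene and barcode, with CD4 and CD8 antibody tag counts, as a filtered matrix of 1 animal. Per the labels these came from Cell Ranger 3.1.0 with STAR 2.5.1b on Mmul_10, and the sources used here do not name the annotation release. The study's filters were used: 200 to 4000 genes detected, a mitochondrial share of no more than 20%, and genes seen in 3 cells or more. Of 322 barcodes left out, 305 were over the mitochondrial limit, 33 under 200 genes and 14 over 4000. Scrublet marked 0 cells at its own threshold, which is taken as a failure of the caller, so no doublets were removed.

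Levels are CPM from summed counts, with exact Poisson intervals, shares have exact Clopper-Pearson intervals, and log2 ratios exact intervals from the binomial split of the UMIs (95%). For a share of 0, the share allowed is instead 3 counts over the number of cells. For co-detection each cell was thinned to 2000 UMIs without replacement, and the steps were tested on simulated data. Genes were named by a rule: the 2 members, the 6 class genes, the first 10 and lowest 5 genes by phi, and genes called or most abundant in each list. Members and lists were chosen with earlier results of these data known. Groups were compared by class gene, receptor segment and tag, and alternatives covered filters, thinning depth, seed, class definition and tag threshold. Receptor genes that the feature list holds under no name, and proteins, were not analysed here, and a few listed genes and a promoter are not reported here. Python 3.11.15, numpy 2.4.6, scipy 1.17.1, pandas 2.3.3 and scanpy 1.11.5 were used.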

Additional observations from a re-analysis of the deposited data

Results flagged for a closer look

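The barcodes left out of every comparison carried both genes. The 322 barcodes held 12 ZBTB16 UMIs in 9 barcodes (9.30 CPM, 4.81 to 16.3) and 38 MAP3K8 UMIs in 23 (29.4 CPM, 20.8 to 40.4), which is above the limit of 3 counts that a count of 0 allows. Both levels lay within the counting error of those in the kept cells, 8.87 and 29.5 CPM.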

How the results depend on the processing

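Of 285 values of 29 results under other settings, 217 moved by less than their counting interval, 68 moved by more and none with an interval clear of 0 changed sign. No paired analysis was possible because the series holds 1 animal. With cells thinned to 2000 UMIs the share of cells with ZBTB16 was 1.46% and with MAP3K8 5.40%, and at 2 UMIs or more 0.526% and 1.88%. In thinned cells with classes from raw UMIs, the log2 ratio of ZBTB16 was 4.45 by TRAV10, 2.65 by TYROBP and −0.99 by GZMB, and that of MAP3K8 by CCR7 −2.09. With classes thinned too, ZBTB16 gave 4.59, 2.95, 1.97 (KLRB1), −1.09 (GZMB) and −0.72 (CCR7), and MAP3K8 by CCR7 −2.00. At 2 or more UMIs of the class gene against 0, ZBTB16 gave 2.69 by TYROBP, 2.01 by KLRB1 and −1.01 by EOMES (−4.06 to 0.86), and MAP3K8 1.57 by TYROBP, 1.20 by KLRB1 and −1.82 by CCR7. As a mean over cells, ZBTB16 by GZMB was −0.93.

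Without any cell holding a B cell gene UMI, MAP3K8 gave 1.22 by KLRB1, 1.40 by GZMB, −1.98 by CCR7, −1.11 by the CD4 tag and 0.082 by the CD8 tag. With only CD3 cells free of B cell and monocyte genes (6820 cells, a setting added after the data were seen) these were 1.25, 1.44, −1.97, −0.99 and 0.099. Without the 5% of cells with the most UMIs, MAP3K8 by CCR7 was −1.98. The median as CD4 threshold gave −0.71, and tags divided by RNA UMIs −1.10. Phi of ZBTB16 with TRAV10 was 0.188 at 1500 UMIs, 0.205 with seed 3 and 0.237 as a mean of 20 draws (added after the data were seen). Phi with MAP3K8 was 0.042 with seed 3 and 0.044 with raw ZBTB16 UMIs. Of the first 10 genes with ZBTB16, 6 were shared at 1500 UMIs, at 3000 UMIs, with seed 2, with raw ZBTB16 UMIs and in the mean of 20 draws, and 5 with seed 3. Most cells with either gene hold 1 UMI of it (186 of 226 for ZBTB16 and 561 of 704 for MAP3K8), which limits what a cell without a UMI can show.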

Other observations

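Outside the 6 class genes, both members were read in cells with a UMI of each of 15 further genes that mark helper, naive or cytotoxic cells. ZBTB16 was highest with IL23R, the receptor of IL-17-producing cells, at 30.3 CPM (15.7 to 53.0, 67 cells), then with GZMK (17.0, 1447 cells), CCR6 (14.9, 581 cells) and CCR4 (14.3, 182 cells). It was at 3.28 CPM (1.91 to 5.26) in 1293 cells with CX3CR1, a receptor of late cytotoxic cells, and at 0 in 76 cells with CXCL13, which allows a share of up to 3.95%. MAP3K8 was highest with GZMK (49.8), KLRF1 (47.7) and GNLY (47.1), and was at 38.4 with CX3CR1. It was low with CCR4 (8.16), CCR9 (7.84) and FOXP3 (6.20, on 5 UMIs), and stood at 12.6 (4.10 to 29.5, on 5 UMIs) with IL23R. GZMK thus stood high for both genes, CX3CR1 low for ZBTB16 and not for MAP3K8, and IL23R high for ZBTB16. For MAP3K8 with IL23R the interval overlapped that of its level over all cells. These genes overlap in the same cells, and the differences between them were not tested.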
